A study of Danio rerio with 14 samples.

Results

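The liver enzymes that build long-chain polyunsaturated fatty acids were followed here across 4 zebrafish genotypes and 3 feeding methods. They are the desaturase fads2 and the elongases elovl2, elovl5, elovl4a and elovl4b. The 5 genes were picked by name, with earlier results of these data known. Each was read from its brightest probe set, by the mean over all arrays, among probe sets to which the platform annotation gives a single symbol. They are 5 of the 21125 genes that could be named in this way. The fads2 gene had 2 probe sets and the other members 1 each.

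Animals make docosahexaenoic acid and arachidonic acid from shorter dietary acids by alternating steps of desaturation and chain elongation in the endoplasmic reticulum. A desaturase adds a double bond, and an elongase of the Elovl family performs the first and rate-limiting reaction of the cycle that lengthens the chain. The zebrafish fads2 enzyme is bifunctional and serves both desaturation steps of the pathway. Elovl5 prefers the shorter polyunsaturated acids and Elovl2 the longer ones, while Elovl4 makes the very long chains found above all in retina, brain and skin of mammals. In mammalian liver, transcription of several of these enzymes is driven by sterol regulatory element-binding proteins (SREBPs) and restrained by dietary polyunsaturated fat.

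Liver RNA of 14 samples was hybridised, 1 array per sample. The wild-type fish (WT) were of the AB strain, and 3 transgenic lines of p53 mutants expressed proteins under the hepatocyte promoter fabp10a. HBx(p53-) expressed the hepatitis B virus X antigen, Src(p53-) the Src kinase, and HBx,Src(p53-) both. Fish were 3 months old at the start and were fed for 8 weeks, with 0.5 mL of Artemia 1 time a day (NOR), with 2 mL 3 times a day, 12 times as much (DIO, overfed), or with the NOR amount plus 0.22 g of high fat food 3 times a day (FAT). The arrays comprised 2 WT NOR, 2 HBx,Src(p53-) NOR, 2 HBx,Src(p53-) DIO and 1 of each other combination, and HBx,Src(p53-) had no FAT array. Each transgenic line differed from WT in p53 as well as in its transgene, so these cannot be told apart here. Fish and arrays are equal in number in a supplement of the study, and samples of a group were therefore taken as separate fish. The sex of single arrays is not given. The p-values measure the spread between arrays, which holds differences between fish and the technical part. Where DIO and FAT were pooled, that spread also holds the difference between these diets within a line. In the model of genotype plus diet it also holds diet changes that differ between lines.

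The deposited values are log2 expression levels normalized by RMA, running from 0.12 to 14.46, with array medians of 2.1 to 2.23 and correlations of 0.924 to 0.968 between arrays. The 10 hepatocyte markers averaged 11.02 to 12.04 on every array. The 7 markers of the vitellogenin list, vtg2 to vtg7 and the oestrogen receptor esr1, averaged 12.02 to 12.52. Vitellogenins are made by the liver of egg-laying females. The 14 exocrine pancreas markers had means of 4.20 to 5.36 over the WT arrays and 4.52 to 6.03 over those of Src(p53-). The means were higher in HBx(p53-), 6.20 to 8.27, and in HBx,Src(p53-), 5.96 to 7.20, while ptf1a, their transcription factor, averaged 1.41. In whole liver tissue, fewer cells of a type and less RNA per cell cannot be told apart.

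The fads2 gene was among the most strongly detected genes of the array, with a mean level of 12.30 that exceeded that of 99.8% of genes. It measured 12.22 and 11.73 in the WT NOR arrays, 12.17 in WT DIO and 12.99 in WT FAT. In HBx(p53-) it measured 12.69 under NOR, 12.15 under DIO and 12.90 under FAT. In Src(p53-) the levels were 12.57, 12.47 and 12.49 in that order. The HBx,Src(p53-) arrays measured 12.66 and 12.55 under NOR and 11.39 and 11.16 under DIO. The overfed HBx,Src(p53-) livers therefore held the 2 lowest fads2 levels of the series, and Src(p53-) was nearly flat over the diets. From the lowest group to the next the gap was 0.70, against an SD of at most 0.35 between paired arrays, and the other 9 steps in the order of the 11 groups lay within that SD.

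The second fads2 probe set was 3.35 to 4.18 log2 units dimmer but ordered the arrays in much the same way (r = 0.94 and rho = 0.87 over 14 arrays, a description). Its overfed HBx,Src(p53-) values of 7.21 and 7.51 were again the lowest, against 8.67 and 8.78 in that line under NOR.

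**Figure D1:**
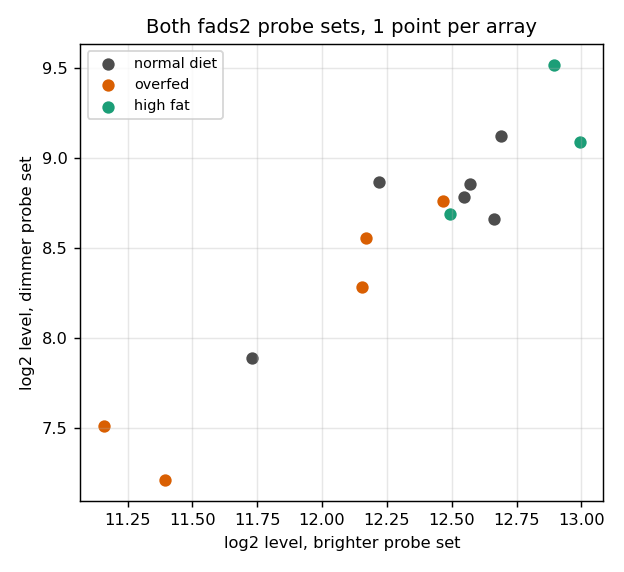
Log2 levels of fads2 by its brighter probe set (horizontal axis) and its dimmer probe set (vertical axis), 1 point per array, coloured by diet. Both probe sets place the 2 overfed HBx,Src(p53-) arrays, at 11.39 and 11.16 on the brighter one, below all the others.

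The elovl2 gene had a mean level of 9.37, above 98.1% of genes, and varied most among the members, over 10.8-fold from its lowest to its highest array. WT NOR measured 8.70 and 9.04, WT DIO 9.45 and WT FAT 9.90. HBx(p53-) measured 10.79 under NOR, 8.94 under DIO and 10.40 under FAT, and Src(p53-) 9.11, 8.94 and 7.77. HBx,Src(p53-) measured 11.20 and 10.85 under NOR and 8.05 and 8.01 under DIO. High levels were thus found in HBx-carrying fish that were not overfed, and low levels in overfed HBx,Src(p53-) and in Src(p53-) on high fat food, while WT alone had its lowest values under NOR. Of the 10 steps between neighbouring groups, 4 lay within 0.25, the largest SD between paired arrays.

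The elovl5 gene had a mean level of 9.20, above 97.9% of genes, and spanned 7.16-fold. It measured 8.90 and 9.67 in WT NOR, 8.45 in WT DIO and 10.05 in WT FAT. HBx(p53-) measured 8.72 under NOR, 9.23 under DIO and 9.42 under FAT, and Src(p53-) 10.46, 8.32 and 9.26. HBx,Src(p53-) measured 10.12 and 10.19 under NOR and 8.46 and 7.62 under DIO. The Src-carrying NOR arrays were the 3 highest of the series, and the overfed arrays were low in every line but HBx(p53-). Only 1 of the 10 steps between neighbouring groups, 0.63, exceeded 0.59, the largest SD between paired arrays.

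Both Elovl4 genes lay near the floor of the array in every liver. The elovl4a levels ran from 1.29 to 1.99, with a mean above that of 12.3% of genes, and those of elovl4b from 1.27 to 2.89, with a mean above that of 14.05%. Of 8 neural and retinal markers, 7 had a mean level under 3 as well, and sncb had one of 4.66. The median of the mean levels of all genes was 3.11, so a mean under 3 was common. The highest elovl4b value, 2.89, came from the first HBx,Src(p53-) NOR array, whereas the second gave 1.27, and the overfed arrays of that line gave 2.09 and 2.25. The 10 arrays of the other lines stayed between 1.28 and 1.67. The germ cell markers averaged 2.06 to 3.21 in that line and 1.67 to 2.32 in the rest. Their mean level was among the covariates tried in the closing section, where elovl4b values under that covariate alone are not given. Neither gene passed a filter at the median gene level, which the other 3 members passed, and over the 12 comparisons described here their log2 changes ranged from -0.26 to 0.43 for elovl4a and from -0.22 to 0.52 for elovl4b, with a lowest adjusted p of 0.800.

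**Figure D2:**
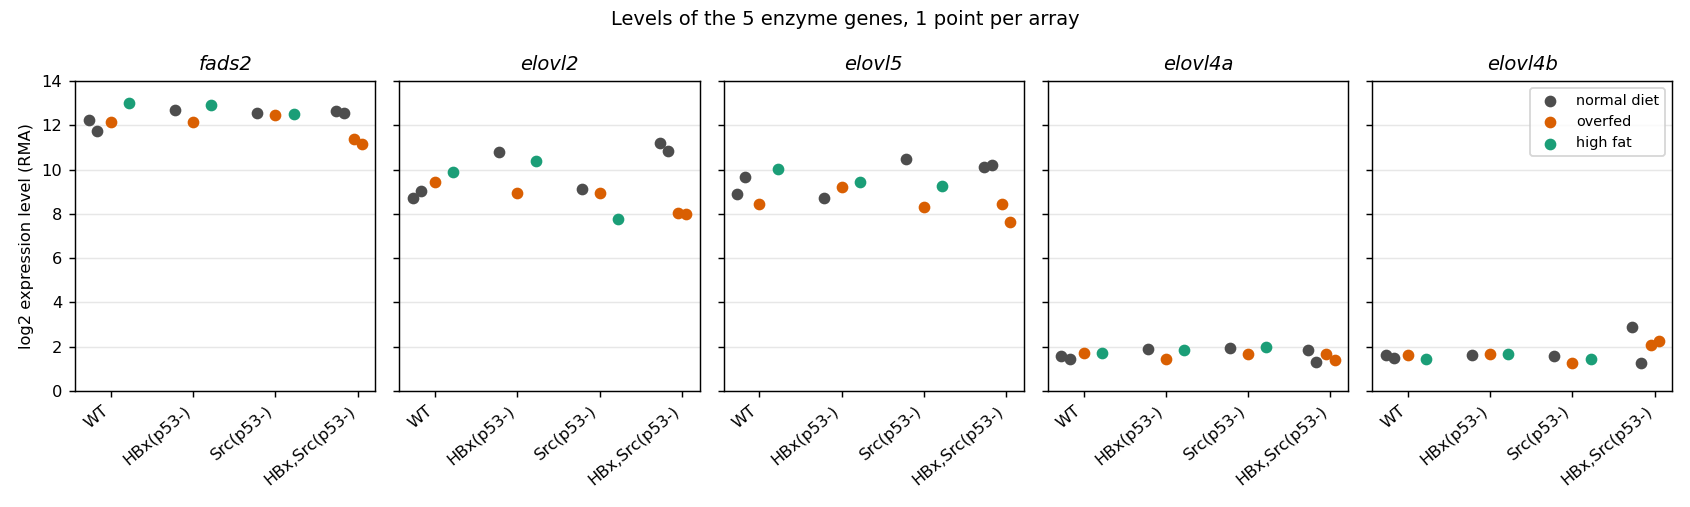
Log2 RMA level of each of the 5 genes on the vertical axis, by genotype on the horizontal axis and by diet in colour, 1 point per array. The fads2 levels lie between 11.16 and 12.99, elovl2 and elovl5 vary more, and elovl4a and elovl4b stay under 3.

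The first question was how an obesity diet, DIO and FAT pooled, was related to these enzymes in each genotype. In HBx,Src(p53-), where the obesity diet was overfeeding only, the 3 expressed members were all lower. The log2 change was -3.00 ± 0.50 (SE) for elovl2, a 7.98-fold lower level, -2.12 ± 0.54 for elovl5, 4.33-fold lower, and -1.33 ± 0.35 for fads2, 2.51-fold lower. For each of the 3 the 2 overfed arrays lay below both NOR arrays, as did 24.7% of all genes in this comparison. With limma the unadjusted p was 1.88e-04 for elovl2, where 28 of all genes had a larger absolute t, 0.0035 for elovl5 and 0.0039 for fads2. After Benjamini-Hochberg adjustment over all genes the limma p was 0.121, 0.240 and 0.245, so none passed at 0.05. That level called 3 genes in all, 0.0142% of those tested. At more than 2-fold with an unadjusted p under 0.05, a less strict threshold taken from the methods, these 3 of the 5 members were called lower, against 3.92% of all genes. Under the alternatives tried, each array left out included, the change ran from -3.39 to -2.82 for elovl2. It ran from -2.54 to -1.70 for elovl5 and from -1.62 to -1.21 for fads2.

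The other genotypes gave smaller or mixed values. No gene passed the adjusted test in WT, HBx(p53-) or Src(p53-), 0% of those tested in each case. An unadjusted limma p under 0.05 was found for 916, 791 and 1069 genes in that order, or 4.34%, 3.74% and 5.06%. These shares are near the one expected by chance at that threshold. In Src(p53-) the elovl5 change was -1.67 ± 0.67 (limma unadjusted p = 0.0331, adjusted p = 0.974), the only member past the less strict threshold, which 1.87% of genes passed as lower. It no longer passed without the overfed Src(p53-) array, where the change was -1.20. The same line gave -0.76 ± 0.61 for elovl2 and -0.09 ± 0.43 for fads2. All 14 exocrine pancreas markers were higher in this comparison, with a median log2 change of 1.37. With their mean level as a covariate the changes were -1.88 for elovl5, -1.47 for elovl2 and -0.63 for fads2. HBx(p53-) gave -1.13 ± 0.61 for elovl2, 0.61 ± 0.67 for elovl5 and -0.16 ± 0.43 for fads2. In WT the values were 0.81 ± 0.50 for elovl2, 0.61 ± 0.35 for fads2 and -0.04 ± 0.54 for elovl5, none past either threshold.

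**Figure D3:**
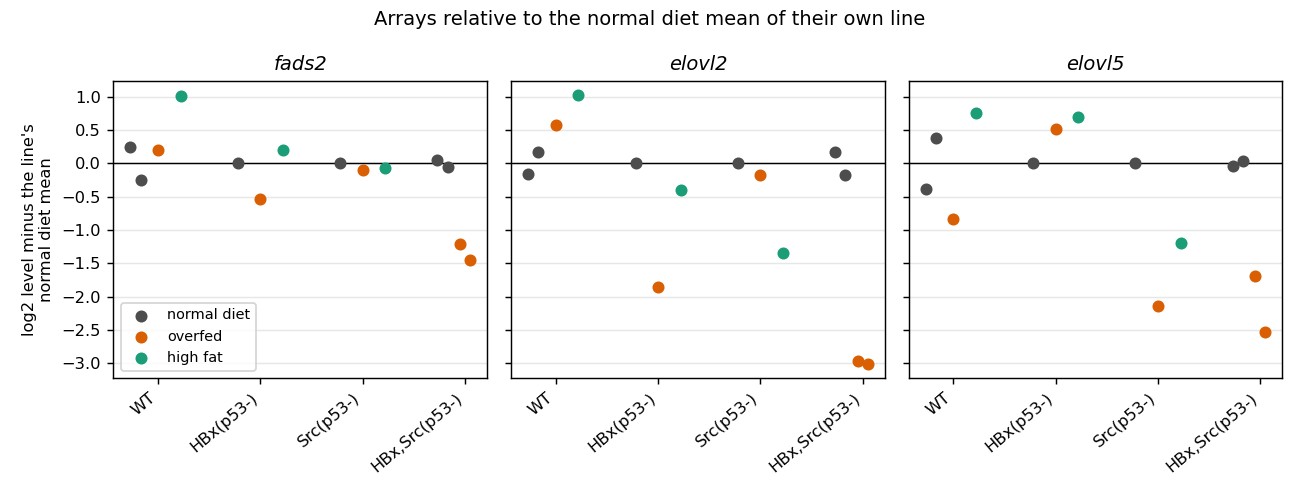
Log2 level of fads2, elovl2 and elovl5 on each array minus the NOR mean of its own line (vertical axis), by genotype on the horizontal axis and by diet in colour. The overfed HBx,Src(p53-) arrays lie about 3.00 below their NOR mean for elovl2, whereas both obesity diet arrays of WT lie above theirs.

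Set beside each other by feeding method, the lines differed for each enzyme. Overfeeding came with a log2 difference in elovl2 of 0.58 in WT, -1.86 in HBx(p53-), -0.17 in Src(p53-) and, with both transgenes, -3.00. The elovl2 difference was thus lowest in both lines that carry HBx. For elovl5 the same differences were -0.84, 0.51, -2.14 and -2.12, so that here the Src-carrying lines had the lowest values. For fads2 they were 0.20, -0.53, -0.10 and -1.33, with a difference over 1 only where HBx and Src were combined. Under DIO itself elovl2 measured 9.45 in WT, 8.94 in HBx(p53-), 8.94 in Src(p53-) and on average 8.03 with both transgenes. The elovl5 levels under DIO were 8.45, 9.23, 8.32 and 8.04 in the same order. The comparison of genotypes under NOR below uses the same NOR arrays, so its pattern by line is not independent of this one. These differences rest on 1 overfed array in each line but HBx,Src(p53-), and on 1 NOR array in each of HBx(p53-) and Src(p53-). In a model with all 11 groups as cell means none of them passed the adjusted limma test (lowest adjusted p = 0.0983, for elovl2 in HBx,Src(p53-)).

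Whether the diet change differed between Src-carrying lines and the other lines was tested directly. The obesity diet change was lower in the Src-carrying lines by a log2 difference of -2.18 ± 0.61 for elovl5, -1.71 ± 0.56 for elovl2 and -0.93 ± 0.39 for fads2. The limma unadjusted p was 0.0057, 0.0132 and 0.0392, the adjusted p was 0.514, 0.532 and 0.604, and 0% of genes passed. At the less strict threshold elovl5 and elovl2 were called lower, against 3.11% of all genes. With overfeeding alone, the matched diet in all 4 lines, the differences were -1.97 ± 0.51 for elovl5 (limma unadjusted p = 0.0092, adjusted p = 0.881), -0.94 ± 0.34 for elovl2 and -0.55 ± 0.35 for fads2. Again 0% of genes passed after adjustment. Only elovl5 passed the less strict threshold, with 2.62% of genes called lower. Under the alternatives its difference ran from -2.18 to -1.07 and that of elovl2 from -1.04 to -0.42. With the exocrine pancreas markers as a covariate neither passed. The alternatives for the overfeeding difference did not leave out the WT DIO array or the NOR and DIO arrays of HBx(p53-) and Src(p53-). Each was alone in its group.

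The second question was how the feeding methods compared over all genotypes, in an additive model of genotype and diet. DIO was lower than NOR with a log2 change of -1.32 ± 0.53 for elovl2, -1.27 ± 0.39 for elovl5 and -0.54 ± 0.26 for fads2. The limma unadjusted p was 0.0300, 0.0068 and 0.0572, the adjusted p was 0.776, 0.739 and 0.794, and 0% of genes passed. At the less strict threshold elovl2 and elovl5 were called lower, against 0.516% of all genes. Only 1 of these 2 passed when the NOR or the DIO array of HBx(p53-), or any single HBx,Src(p53-) array, was left out. The additive change joined lines that differed in their own values, from 0.58 to -3.00 for elovl2 as given above.

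The values of FAT against NOR were smaller. In this contrast 0% of genes passed the adjusted limma test, and 818 (3.87%) had an unadjusted limma p under 0.05. The FAT change was 0.25 ± 0.31 for fads2, -0.51 ± 0.65 for elovl2 and -0.09 ± 0.47 for elovl5. The sign of each turned when 1 array was left out, the WT FAT array for fads2, the Src(p53-) FAT array for elovl2, and that array or any of 3 others for elovl5. By line, FAT minus NOR for elovl2 was 1.03 in WT, -0.40 in HBx(p53-) and -1.34 in Src(p53-), and for elovl5 it was 0.76, 0.70 and -1.20. Against DIO, FAT was higher by 1.19 ± 0.49 for elovl5, by 0.79 ± 0.33 for fads2 and by 0.81 ± 0.67 for elovl2. The limma unadjusted p was 0.0324, 0.0325 and 0.253, the adjusted p was 0.731, 0.731 and 0.885, and 0% of genes passed. Only elovl5 was called higher at the less strict threshold, as were 1.24% of genes, and it was not without the WT or the HBx(p53-) FAT array. HBx,Src(p53-), which had no FAT array, supplied 2 of the 5 DIO arrays in this contrast. In Src(p53-) elovl2 was lower under FAT, at 7.77, than under DIO, at 8.94. It was higher under FAT in WT (9.90 against 9.45) and in HBx(p53-) (10.40 against 8.94). The 3 FAT arrays lay above the 5 DIO arrays without overlap for fads2, elovl5 and elovl4a, as did 2.95% of genes. The nearest arrays were close, however, at 12.47 and 12.49 for fads2 and at 9.23 and 9.26 for elovl5. All elovl4a levels of these arrays lay between only 1.42 and 1.99. All 14 exocrine pancreas markers were also higher under FAT than under DIO, with a median log2 change of 0.72. With their mean level as a covariate the changes of FAT against DIO were 1.65 for elovl5, 0.76 for fads2 and 0.72 for elovl2.

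The third question was how the genotypes differed without a diet change. Under NOR, elovl2 was higher than in WT by 2.16 ± 0.50 in HBx,Src(p53-), 4.46-fold, and by 1.92 ± 0.61 in HBx(p53-), 3.795-fold, but by only 0.24 ± 0.61 in Src(p53-). The limma unadjusted p was 0.0019, 0.0117 and 0.706, and the adjusted p was 0.262, 0.594 and 0.993. After adjustment 0.00947% of genes, 2 in number, passed in HBx,Src(p53-) and likewise 0.00947% in Src(p53-), while 0% passed in HBx(p53-). At the less strict threshold elovl2 was called higher in HBx,Src(p53-), with 4.14% of genes, and in HBx(p53-), with 2.79% of genes. The 3 HBx-carrying NOR arrays, 10.79 to 11.20, did not overlap with the other 3, 8.70 to 9.11, which also held for 5.36% of all genes. All 14 exocrine pancreas markers were higher as well in HBx(p53-) than in WT, with a median log2 change of 2.74, and in HBx,Src(p53-), with a median of 1.50. Of 9 leukocyte markers, 8 were higher in HBx,Src(p53-) than in WT, with a median of 1.47, and 4 passed the less strict threshold. The part of the leukocyte markers in the elovl2 values was not tested. With the mean pancreas marker level as a covariate the elovl2 change was 0.50 in HBx(p53-) and 1.28 in HBx,Src(p53-).

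For elovl5 the pattern under NOR differed, with the higher levels in Src-carrying fish. The change against WT was 1.17 ± 0.67 in Src(p53-) and -0.57 ± 0.67 in HBx(p53-), and 0.87 ± 0.54 with both transgenes, none past either threshold (lowest limma adjusted p = 0.710). The 3 Src-carrying NOR arrays, 10.12 to 10.46, lay above the other 3, 8.72 to 9.67, as they did for 7.26% of all genes. For fads2 the 3 transgenic lines were close to each other, at 0.71 ± 0.43 with HBx, 0.60 ± 0.43 with Src and 0.63 ± 0.35 with both, again past neither threshold. With the exocrine pancreas covariate the fads2 change was -0.36 in HBx(p53-) and -0.03 in HBx,Src(p53-).

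**Figure D4:**
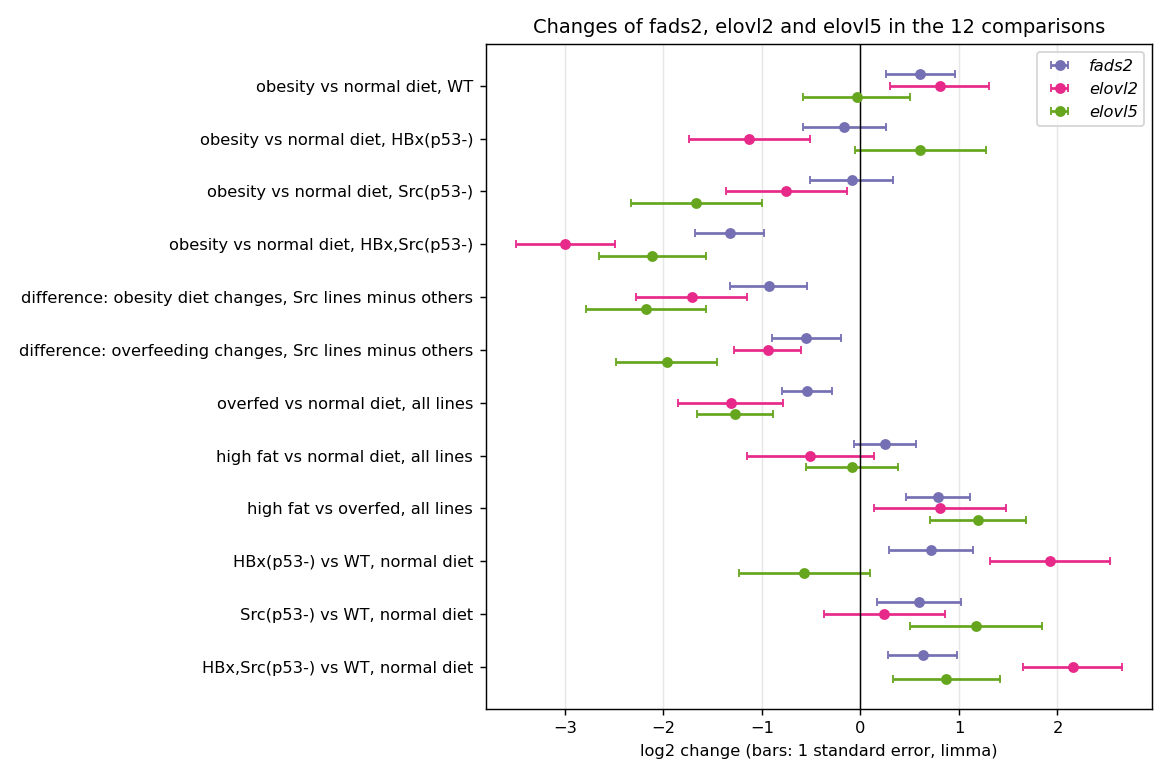
Log2 change of fads2, elovl2 and elovl5 (horizontal axis, points, with bars of 1 standard error from limma) in the 12 comparisons listed on the vertical axis. The obesity diet change in HBx,Src(p53-) is lowest for elovl2, at -3.00, and the difference of changes between lines is largest for elovl5, at -2.18.

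The partners of these enzymes in the same pathway were then examined. In the obesity diet comparison of HBx,Src(p53-), 55.1% of all genes were lower, with a median log2 change of -0.05, and no gene of the lists named here passed the adjusted limma test. Of 7 other measured elongases, 5 were lower and 2 higher, with a median of -0.06. The change in elovl6, which elongates saturated acids, was -3.33 ± 1.21, from 4.59 and 6.85 under NOR to 2.48 and 2.29 under DIO. The other 6 had changes of -0.50 to 0.30. Among the 11 elongases measured, only elovl2, elovl5 and elovl6 thus had a change over 1 log2 unit. Of the rest, only elovl1b and elovl8b had mean levels above the median gene level of 3.11, at 5.20 and 5.69. The remaining ones had mean levels of 1.67 to 2.56, where a change could be hidden.

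An Elovl enzyme works with a reductase, a dehydratase and a second reductase. Of 10 genes for these partners and for the carboxylases that supply malonyl-CoA, 8 were lower and 2 higher, with a median of -0.42. The second reductase tecrb had a log2 change of -1.56 ± 0.37, from 8.58 and 9.16 to 7.37 and 7.24, and the first reductase hsd17b12b one of -1.10 ± 0.45. The dehydratase hacd1 was higher, by 1.82 ± 0.36, from 5.43 and 4.33 to 6.60 and 6.79. Of 11 other desaturases and electron donors, 9 were lower, with a median of -0.33. Among these cyb5r2, a cytochrome b5 reductase, had a log2 change of -1.94 ± 0.79, whereas cyb5a, the cytochrome b5 that passes electrons to desaturases, had a log2 change of 0.13 ± 0.30.

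Known regulators of fatty acid enzymes were lower in 14 of 21 cases, with a median of -0.30. The sterol regulator srebf2 had a log2 change of -2.28 ± 0.43, from 8.46 and 8.79 to 6.38 and 6.31 (limma unadjusted p = 4.22e-04, adjusted p = 0.153). The lipogenic factor thrsp had a log2 change of -3.02 ± 0.98 and the nuclear receptor pparaa one of -1.44 ± 0.46. The 13 measured SREBP targets outside the family, mostly enzymes of sterol and fatty acid synthesis, of which scd and acaca also belong to lists above, were all lower, with a median of -4.15. The enzymes of cholesterol synthesis hmgcs1, mvda and lss had log2 changes of -5.80 ± 0.88, -5.18 ± 0.83 and -4.77 ± 0.81 (limma adjusted p = 0.121 for each). The same 13 genes had a median of -1.77 in Src(p53-), all lower, of 0.22 in HBx(p53-), with 9 higher, and of 0.44 in WT, with 9 higher. The members' own values in these lines are those given above. The lists share libraries, so no test of their agreement was made.

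The lists of genes that place polyunsaturated acids in lipids or use them had median changes between -0.31 and 0.04. Of 17 acyl-CoA synthetases and acyltransferases, 14 were lower, with a median of -0.29. The acyltransferase lpcat1 had a log2 change of -1.29 ± 0.26, but at low levels, from 3.21 and 2.72 under NOR to 1.51 and 1.83 under DIO. The change was -2.20 ± 0.76 for acsl5, while acsl4b, a synthetase that in mammals favours arachidonic acid, had a log2 change of 1.42 ± 0.64. Of 14 genes of peroxisomal beta-oxidation, which performs the last chain-shortening step on the way to docosahexaenoic acid, 11 were lower, with a median of -0.31. Its bifunctional enzyme hsd17b4 measured 8.65 and 9.15 under NOR and 8.06 and 8.10 under DIO, a change of -0.82 ± 0.33. Eicosanoid synthesis, which consumes arachidonic acid, was balanced, with 10 genes lower and 10 higher and a median of 0.04. There the phospholipase pla2g6 had a log2 change of -1.27 ± 0.35 and ptges3a, a prostaglandin synthase by name, one of 1.13 ± 0.34. The ptges gene had one of -0.84 ± 0.33, at low levels. Of 16 genes for uptake and binding of fatty acids 11 were lower and 5 higher, with a median of -0.26. Among the lower ones were the transporter slc27a1a at -0.99 ± 0.37, fabp2 at -2.26 ± 1.03 and mfsd2ab at -2.02 ± 1.21. Hepatocyte markers were 4 higher and 6 lower, with a median of -0.01, and exocrine pancreas markers 13 higher and 1 lower, with a median of 0.74. With the pancreas markers as a covariate the changes of fads2, elovl2 and elovl5 in HBx,Src(p53-) were -1.62, -3.39 and -2.23.

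**Figure D5:**
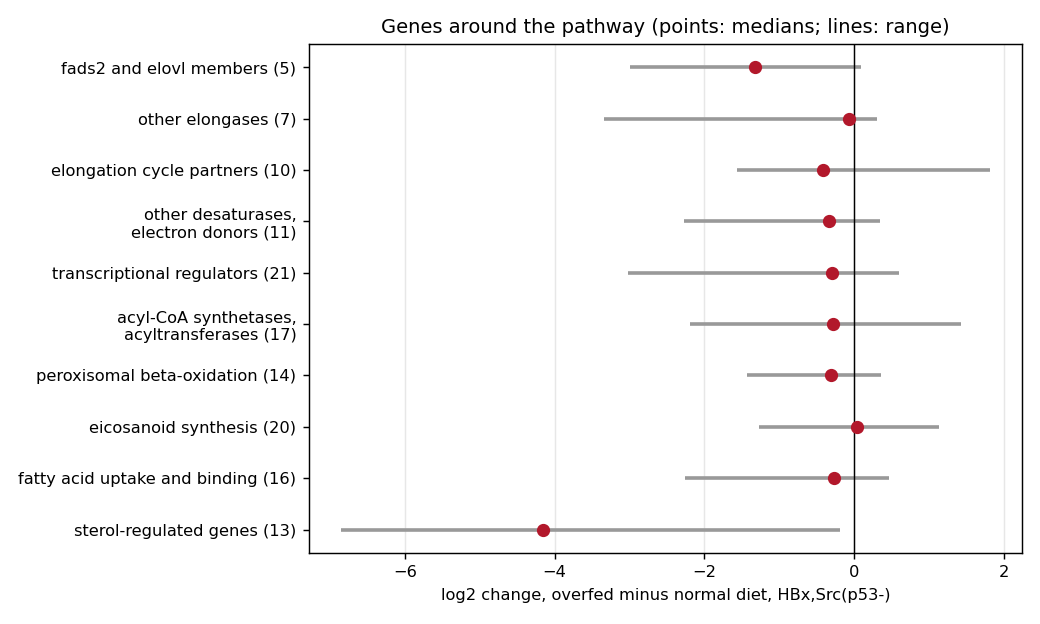
Median (points) and range (lines) of the log2 change from NOR to DIO in HBx,Src(p53-) (horizontal axis) for the 10 pathway lists, with the number of genes measured in parentheses. The 13 SREBP targets lie lowest, with a median of -4.15, and most other lists lie just below 0.

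In the test of the diet change between Src-carrying and other lines, all 11 other desaturases and electron donors were lower in the Src-carrying lines, with a median difference of -0.73. The lowest value was that of the stearoyl-CoA desaturase scd, at -4.66 ± 2.38, while cyb5r2 at -2.69 ± 0.89 and cyb5b at -2.22 ± 0.74 had the largest absolute t. The partner hsd17b12b gave -1.91 ± 0.50, srebf2 gave -1.85 ± 0.48 and acsl4b gave 2.06 ± 0.72. Of the 13 SREBP targets 12 were lower there, with a median of -3.16, the lowest being sqlea at -6.65 ± 1.40. Of all genes, 52.9% were lower in this contrast, with a median of -0.03. None passed the adjusted limma test, where 1634 genes (7.73%) had an unadjusted p under 0.05. All 14 exocrine pancreas markers were higher in this contrast, with a median of 0.75. With their mean level as a covariate the members' differences were -2.30 for elovl5, -2.14 for elovl2 and -1.25 for fads2. The part of these markers in the values of the other genes named here was not tested.

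The expressed members went together loosely over the 14 arrays. Pearson's r was 0.66 for fads2 and elovl2, 0.62 for fads2 and elovl5 and 0.51 for elovl2 and elovl5, as a description over arrays that share genotypes and diets. Without the 2 arrays farthest from the median of the first gene these values were 0.49, 0.28 and 0.31. The arrays left out were the DIO arrays of HBx,Src(p53-) for fads2 and its NOR arrays for elovl2. Leaving out the most extreme arrays tends to lower a positive r whichever group they come from, so no line is singled out. After centring each array on its genotype the r values were 0.86, 0.68 and 0.63. Such values were not limited to the expressed members. Near the floor, elovl4a had an r of 0.52 with fads2, 0.51 without the 2 farthest arrays and 0.40 after centring. The other pairs with elovl4a or elovl4b ran from -0.30 to 0.17 over the 14 arrays. After centring, elovl4a and elovl4b had an r of 0.60 with each other, and the rest of these pairs ran from -0.05 to 0.29.

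The genes most like each member over the 14 arrays were found by Pearson's r among all genes. For fads2 they were nid1a (r = 0.905), srgap2 (0.904) and the peroxisomal enzyme hsd17b4 (0.903). For elovl5 they were the lipase abhd6a (0.928), the signal peptide peptidase hm13 (0.918) and the mannosyltransferase alg9 (0.914). For elovl2 they were endouc (0.855), the purine synthesis enzyme paics (0.823) and ppp1r14ba (0.805), and 2 of these, endouc and ppp1r14ba, had mean levels of only 1.93 and 2.00. The values for elovl4b, led by nxpe3l (0.949), eef1a1l3 (0.944) and birc5b (0.937), come with 1 NOR array of HBx,Src(p53-) far above the other 13. For elovl4a, which stays at the floor, pi4kab (0.842), mlxip (0.834) and npy8ar (0.810) came closest.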

How the data were processed

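The authors deposited log2 values made with RMA in oligo (background correction, quantile normalization and median polish per probe set), versions and genome build not given in the sources used here. RMA hides changes in total RNA and shrinks differences of dim probe sets, and probes of paralogs can cross-hybridise. Of 75212 probe sets, 30358 had 1 symbol, 1015 several and 43839 none. Symbols of 19501 genes were checked through Entrez identifiers against GRCz12tu, which changed 1, and 1624 were kept unmatched. All 21125 genes were fitted in limma 3.58.1 (R 4.3.3) with Benjamini-Hochberg adjustment, no low-level filter and no covariate, using cell means of genotype by NOR or obesity diet, cell means of all 11 groups, or genotype plus diet. Groups of 1 array took their spread from the other groups. Errors are standard errors. Scripts were tested on simulated data. The named genes were the members, the 3 genes most like each, and up to 3 per list with the largest absolute t in the HBx,Src(p53-) comparison or the difference of changes. Other genes (cyb5a, scd) were named after their values were seen. Members and lists were chosen with earlier results of these data known. Promoter and protein sequences were not analysed here. Alternatives are in the closing section.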

Additional observations from a re-analysis of the deposited data

Results flagged for a closer look

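The elovl4b level of 2.89 in the first HBx,Src(p53-) NOR array stood far from the other 5 NOR arrays, with a gap of 0.773 of the group's range. It was the only one of 20 groups of 4 to 10 arrays tested to show such a gap, and chance gives about 1 in 20.

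In 7 of 30 combinations of a gene and a pair of genotypes, all obesity diet arrays of one line lay above its NOR arrays while those of the other lay below, as did 13.2% of such combinations over all genes. These differences were not tested, and several lines have 1 array per diet. The elovl2 change minus that of WT was -1.93 in HBx(p53-), -1.56 in Src(p53-) and, with both transgenes, -3.802. The elovl5 change minus that of HBx(p53-) was -2.27 for Src(p53-) and -2.72 for HBx,Src(p53-). Near the floor of the array, the elovl4a change in HBx(p53-) minus that in WT was -0.44, and the elovl4b change in Src(p53-) minus that in HBx(p53-) was -0.25.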

How the results depend on the processing

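No member passed an adjusted p of 0.05 in any of the 12 comparisons under any alternative. The alternatives were the mean of all probe sets, a median-level filter, median centring, quantile normalization, trended robust moderation and covariates of 3 marker lists. Others were 11 cell means, a replicate block, and each array left out where the comparison could still be fitted. The lowest adjusted p was 0.0983, for elovl2 in overfed HBx,Src(p53-). Sample numbers did not pair the arrays (correlations of deviations 0.128, -0.232 and -0.0319), and with the replicate block 0 members were called, as without it, while genes called in that line went from 3 to 6. Median centring moved all genes by -0.20 in HBx,Src(p53-) against WT, where elovl2 was then 1.96.

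At over 2-fold with unadjusted p under 0.05, 1 member passed in Src(p53-), 3 in HBx,Src(p53-), 2 in the difference of obesity changes, 1 in that of overfeeding changes, 2 in DIO against NOR, 1 in FAT against DIO, and 1 each in HBx(p53-) and HBx,Src(p53-) against WT. These became, with the pancreas covariate, 1 in HBx(p53-), 2 in Src(p53-), 0 in the overfeeding difference and 0 in HBx(p53-) against WT. With the vitellogenin covariate, 0 passed in Src(p53-), in the overfeeding difference and in HBx(p53-) against WT. The overfeeding difference had 2 with the germ cell covariate or quantile normalization. With 11 cell means, 1 passed in HBx(p53-), also for the overfed change alone, where the obesity difference had 1. Leaving out each array gave 0 to 1 in WT, HBx(p53-) and Src(p53-), 1 to 2 in the overfeeding difference, DIO against NOR and HBx,Src(p53-) against WT, and 0 to 2 in FAT against DIO. An array alone in a group that a comparison used could not be left out of that comparison. This held for the NOR arrays of HBx(p53-) and Src(p53-) in the models of cell means. In the overfeeding difference it also held for the DIO arrays of WT, HBx(p53-) and Src(p53-). The counts under alternatives are given without the share of all genes past the same threshold, so they describe the members only. The causes were not tested.

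Single values turned sign: elovl5 in WT to 0.16 (germ cell covariate) and, leaving out arrays, -0.84 to 0.76. For fads2, HBx(p53-) gave 0.13 (vitellogenin covariate) and -0.53 to 0.21 without single arrays, Src(p53-) 0.0015 (quantile), and the pancreas covariate -0.36 and -0.0267 in HBx(p53-) and HBx,Src(p53-) against WT. FAT minus NOR without single arrays ran from -0.0593 to 0.50 for fads2, -1.04 to 0.14 for elovl2 and -0.50 to 0.23 for elovl5, which was 0.63 with the pancreas covariate. The elovl4a and elovl4b signs turned in 22 and 32 of 266 alternative values. The number of arrays limits precision, since 8 of 11 groups hold 1.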
